A study of Mus musculus with 7 samples.

Results

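The genes described here are the enzymes that make cholesterol and fatty acids, together with the genes of their shared control by sterol regulatory element binding proteins (SREBPs). They were chosen as a list of 32 gene symbols, and 32 of 32 were among the 24964 genes of the deposited expression table. Of these, 7 act in the mevalonate steps, 11 between squalene and cholesterol, 6 in SREBP control and 8 in fatty acid synthesis. The 11 include Fdft1, which makes squalene itself. Expression was measured by RNA sequencing of whole uterus from mice 12 weeks old and labelled as in diestrus, the stage of the estrous cycle between ovulations. The 3 control libraries (replicates 1, 2 and 4) had the genotype Pgrcre/+, and the 4 other libraries (replicates 1 to 4) had the genotype Pgrcre/+Foxl2LsL/+ and are named Foxl2-LSL here after that label. All 7 libraries thus carry a Cre recombinase allele at the progesterone receptor gene Pgr, which is active in several uterine cell types, so that the control is not a wild type. By its title the study asked what an excess of FOXL2, a forkhead family regulator of transcription, does to uterine structure and function. The labels do not say whether a library came from 1 animal or from several, so the tests measure the spread between these libraries.

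Cholesterol is built from acetyl-CoA by way of mevalonate, farnesyl diphosphate and squalene, and fatty acids are built from acetyl-CoA by way of malonyl-CoA. The SREBP precursors, encoded by Srebf1 and Srebf2, sit in the endoplasmic reticulum bound to the escort protein SCAP. When sterols are plentiful the INSIG proteins hold that complex back, and when sterols are scarce SCAP carries the precursors to the Golgi, where proteases release the active factors that switch on most genes of both pathways. Insig1 is itself a target of SREBP, as are most of the sterol enzymes. In the uterus cholesterol serves membranes and lipid signalling, and fatty acid enzymes are also abundant in adipose tissue, which surrounds the organ.

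The values are FPKM, that is fragment counts scaled to gene length and to the size of the library. Foxl2 itself was at 11.1 to 19.3 FPKM in the controls and at 12.7 to 17.2 FPKM in the libraries labelled Foxl2-LSL (log2 difference 0.06, SE 0.18; limma, Benjamini-Hochberg adjusted p 0.818), so the table shows no rise of the gene the label names, and groups are called by their labels throughout. The library denominators recovered from the table were 47800000 to 67300000 fragments. The least covered library of the least covered member, Idi1, still held 155 fragments, a counting error of 8.03%. Epithelial, stromal, smooth muscle and endothelial markers were present in every library. The summed FPKM of 10 epithelial markers was 674 to 1544 in the controls, lowest in control 4, and 1212 to 1947 in the libraries labelled Foxl2-LSL. The summed FPKM of 12 adipose markers was 3.43, 17.5 and 147 in controls 1, 2 and 4, and 7.67, 206, 388 and 31.1 in Foxl2-LSL 1 to 4, so both groups held libraries with little and with much fat. Of 7 ovarian markers 4 were under 1 FPKM in every library, and their sum was at most 17.6 FPKM, in Foxl2-LSL 1. Other marker sums differed more between the groups: gland markers were at 62.8 to 99.8 FPKM in the controls and at 20.4 to 24.9 FPKM in the Foxl2-LSL group (3 of 4 tested lower past the threshold given below), and cell cycle genes at 129 to 284 and at 24.4 to 52.4 FPKM (10 of 10 lower). Endothelial markers were at 115 to 154 and at 81.8 to 90.6 FPKM (1 of 7 higher, 5 lower), and leukocyte markers at 27.9 to 39.1 and at 41.4 to 79.6 FPKM (2 of 6 tested higher). Stromal sums (1189 to 1995 and 1638 to 1907 FPKM) and smooth muscle sums (896 to 1736 and 1573 to 2010 FPKM) overlapped, while 1 of 8 stromal markers was higher and 3 were lower, and 3 of 8 smooth muscle markers were higher. These counts stand beside 16.7% of all tested genes that were higher past that threshold and 23.9% that were lower. The part of the marker shifts in the results below was not tested. In bulk tissue fewer cells of a type and less RNA per cell cannot be told apart.

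All 32 members passed the filter on low values, a mean of at least 1 FPKM over the 7 libraries. Of them, 12 passed an adjusted p of 0.05 (limma on log2(FPKM + 1), Benjamini-Hochberg over all 13334 tested genes): in the Foxl2-LSL group 9 of them rose and 3 fell. That share, 37.5%, lies near the 40.6% of all tested genes that passed. By direction, 28.1% of the members were higher, beside 16.7% of all tested genes, and 9.38% were lower, beside 23.9%. The groups did not overlap in 8 members that were higher and in 5 that were lower, together 40.6% of the members; over all tested genes these shares were 19.7% and 27.9%, together 47.6%. The members' log2 differences ran from -0.75 to 0.83 with a median of 0.05, and the median of all tested genes was -0.05. No member passed the threshold with a log2 difference of 1 or more in either direction, which 7.78% of all tested genes did. The members past the threshold went in both directions: 6 enzymes between squalene and cholesterol, Mvd and both INSIG genes were higher, and the escort gene Scap and 2 fatty acid enzymes were lower.

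**Figure D1:**
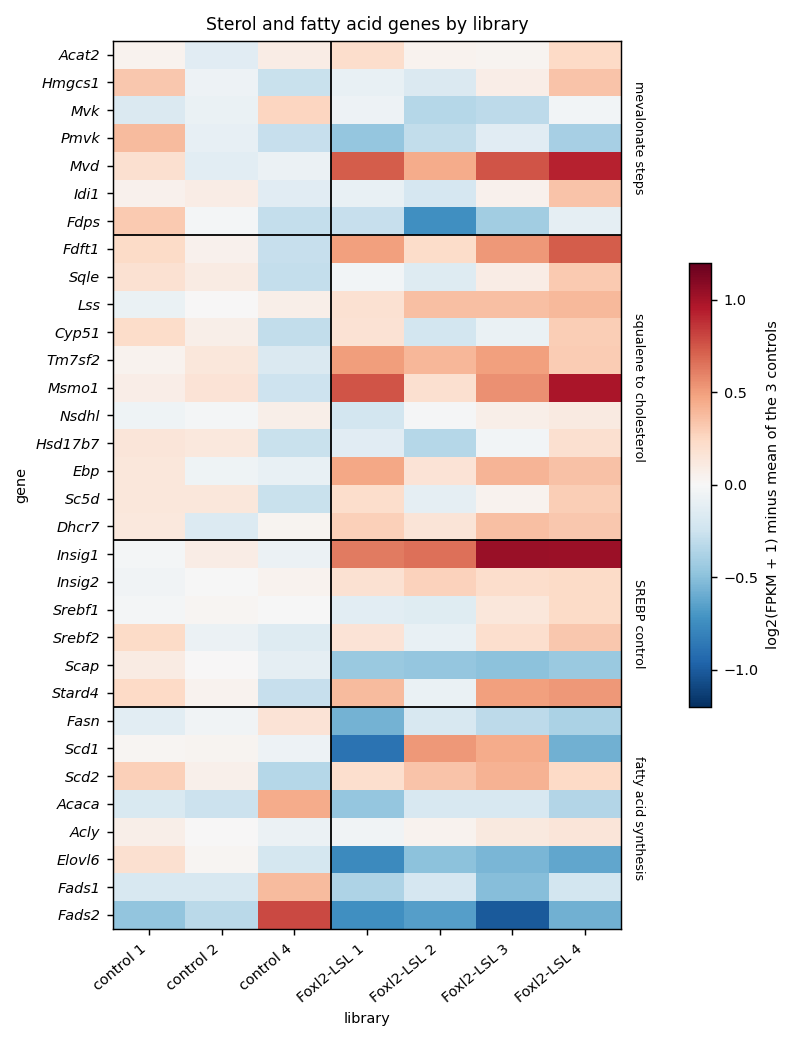
Heat map of the 32 genes (rows, grouped by step) in the 7 libraries (columns). Colour gives log2(FPKM + 1) minus the mean of the 3 controls for that gene; Insig1 and Mvd are above the control mean in all 4 libraries labelled Foxl2-LSL, Scap and Elovl6 are below it in all 4, and control 4 departs from the other controls in Fads2 and Acaca.

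**Figure D2:**
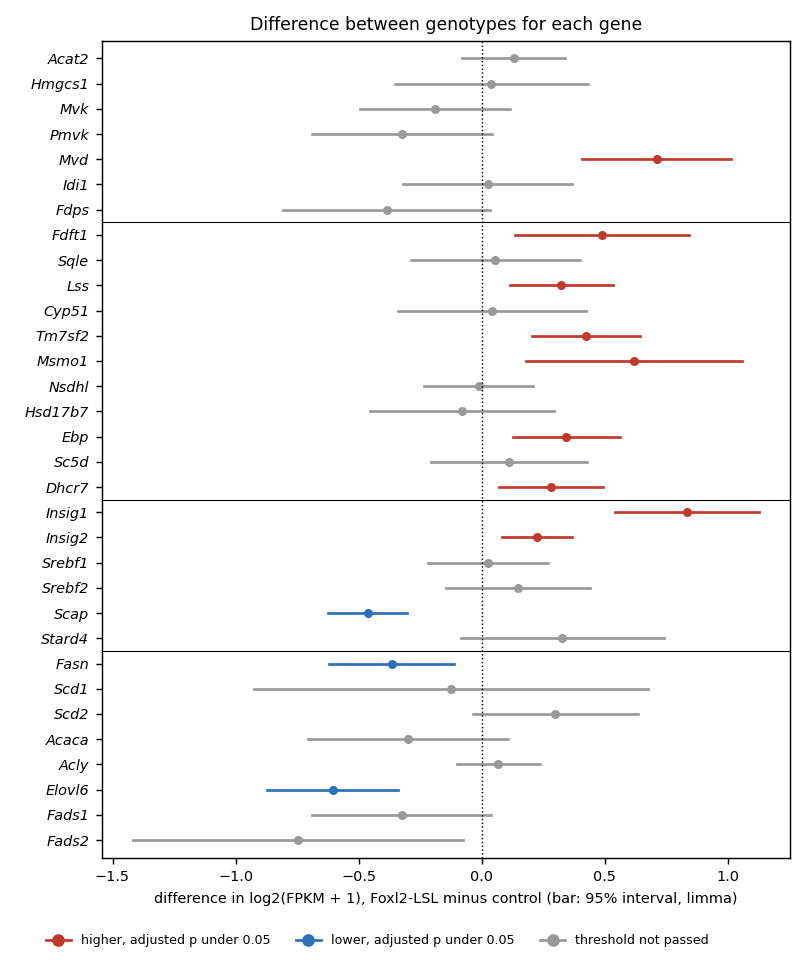
Difference in log2(FPKM + 1) between the libraries labelled Foxl2-LSL and the controls for each gene (point) with its 95% confidence interval from limma (bar). Red marks the 9 genes that were higher and blue the 3 that were lower past an adjusted p of 0.05; grey marks the 20 that did not pass.

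Among the control genes, Insig1 showed the largest rise of any member. Insig1 (chromosome 5, 28071363 to 28078662, on the plus strand, with coordinates of GENCODE M21 for GRCm38 here and below) encodes the retention protein that holds SCAP in the endoplasmic reticulum. It stood at 6.24, 6.82 and 6.01 FPKM in controls 1, 2 and 4, and at 10.3, 10.6, 14.0 and 14.0 FPKM in Foxl2-LSL 1 to 4. All 4 libraries labelled Foxl2-LSL lay above all controls, with Foxl2-LSL 3 and 4 above the other two. From 6.36 ± 0.416 FPKM (SD, n = 3) in the controls the mean went to 12.2 ± 2.06 FPKM (SD, n = 4), a 1.92-fold difference. On the log2 scale this was 0.83 (SE 0.13), with a Benjamini-Hochberg adjusted p of 0.00217 from limma. Insig2 (chromosome 1, 121304353 to 121332589, minus strand), which encodes the second retention protein, was at 9.13, 9.40 and 9.68 FPKM in the controls and at 10.8, 11.6, 11.0 and 11.2 FPKM in Foxl2-LSL 1 to 4. The rise was small and the groups were tight and apart (log2 difference 0.22, SE 0.06; limma, adjusted p 0.0230). With the libraries rescaled to a common sum Insig2 was at 0.21 and did not pass (limma, adjusted p 0.0668). The ratio of Insig1 to Insig2 was 0.684, 0.726 and 0.621 in the controls and 0.953, 0.916, 1.27 and 1.25 in Foxl2-LSL 1 to 4. These ratios did not overlap, which gave a two-sided exact permutation p of 0.0571, the smallest that 35 splits of 3 and 4 libraries allow, and 0.114 after Benjamini-Hochberg adjustment over the 4 ratios computed.

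Scap (chromosome 9, 110333288 to 110384950, plus strand), the escort of the SREBP precursors, moved the other way. It was at 22.5, 21.0 and 19.3 FPKM in the controls and at 15.1, 14.9, 14.5 and 15.1 FPKM in Foxl2-LSL 1 to 4. The libraries labelled Foxl2-LSL differed little among themselves (14.9 ± 0.262 FPKM, SD, n = 4) and all lay below the controls (21.0 ± 1.58 FPKM, SD, n = 3). On the log2 scale Scap fell by 0.46 (SE 0.07), with a Benjamini-Hochberg adjusted p of 0.00209 from limma.

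The SREBP genes themselves did not pass the threshold. Srebf1 was at 17.5, 18.1 and 17.7 FPKM in the controls and at 16.2, 16.0, 19.7 and 21.1 FPKM in Foxl2-LSL 1 to 4. The controls lay within the range of the other group, and the 95% interval of the log2 difference was -0.22 to 0.27. Srebf2, whose product favours the sterol genes, was at 23.5, 18.8 and 17.8 FPKM in the controls and at 22.3, 18.6, 23.0 and 25.05 FPKM in Foxl2-LSL 1 to 4, with an interval of -0.14 to 0.44. The ratio of Srebf1 to Srebf2 was 0.747, 0.962 and 0.999 in the controls and 0.726, 0.862, 0.856 and 0.841 in Foxl2-LSL 1 to 4 (two-sided exact permutation p 0.40, also after Benjamini-Hochberg adjustment over the 4 ratios). Stard4, a carrier that moves cholesterol between membranes, ranged from 5.31 to 8.02 FPKM in the controls and from 6.24 to 9.97 FPKM in the other group (log2 difference 0.33; limma, adjusted p 0.175). It passed without Foxl2-LSL 2 and with array weights (0.46 and 0.38; limma, adjusted p 0.0412 and 0.0295), and without control 4 it was at 0.19 (0.427).

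The bases before the start sites of 4 members are shown because their genes differ in how they moved: Insig1 and Mvd rose, Elovl6 fell, and Hmgcs1, a classic SREBP target, did not pass the threshold. Sequences and start sites are those of RefSeq on GRCm38.p6, printed 5′ to 3′ on the gene's own strand up to the RefSeq start site, without bases that GENCODE M21 places inside the gene. Capitals mark the sterol regulatory element TCACNCCAC, the E-box CACGTG and the NF-Y box CCAAT. On the opposite strand an NF-Y box reads as ATTGG. The motifs were chosen with the results above known.
Insig1 (chr5:28071162-28071362, plus strand): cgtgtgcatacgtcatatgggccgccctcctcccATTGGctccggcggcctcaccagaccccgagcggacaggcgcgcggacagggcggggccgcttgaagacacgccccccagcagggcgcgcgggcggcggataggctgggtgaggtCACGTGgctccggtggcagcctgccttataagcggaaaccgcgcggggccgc
Mvd (chr8:122443423-122443672, minus strand): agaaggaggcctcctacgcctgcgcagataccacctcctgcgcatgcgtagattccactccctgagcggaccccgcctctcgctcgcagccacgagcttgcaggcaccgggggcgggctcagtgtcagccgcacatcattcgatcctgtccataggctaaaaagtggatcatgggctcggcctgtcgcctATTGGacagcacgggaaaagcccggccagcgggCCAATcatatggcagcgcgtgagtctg
Hmgcs1 (chr13:119690101-119690350, plus strand): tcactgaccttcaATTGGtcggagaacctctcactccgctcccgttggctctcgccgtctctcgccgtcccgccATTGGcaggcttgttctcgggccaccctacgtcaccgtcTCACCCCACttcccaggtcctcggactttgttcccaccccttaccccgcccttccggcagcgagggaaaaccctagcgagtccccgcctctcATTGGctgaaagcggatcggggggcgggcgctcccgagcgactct
Elovl6 (chr3:129532136-129532354, plus strand): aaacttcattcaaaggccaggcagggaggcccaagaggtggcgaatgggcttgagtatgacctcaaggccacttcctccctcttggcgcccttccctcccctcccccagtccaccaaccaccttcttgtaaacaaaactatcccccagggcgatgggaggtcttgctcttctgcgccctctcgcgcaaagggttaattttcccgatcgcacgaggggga

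In these stretches Insig1 held 1 NF-Y box and 1 E-box, Mvd held 2 NF-Y boxes, Hmgcs1 held the element TCACCCCAC and 3 NF-Y boxes, and Elovl6 held none of the 3 motifs. Over windows of 250 bases before the start site, 25 of the 32 members had at least 1 window, and Fdps, Fdft1, Sqle, Stard4, Scd1, Scd2 and Fads1 had none. An NF-Y box on either strand was present in 19 of the 25 (76.0%), beside 37.5% of all 27025 genes with a window. It was present in 8 of 8 members that rose, 1 of 3 that fell and 10 of 14 that did not pass. Fasn was the only fatty acid gene with the box, and the others with it act in sterol synthesis or SREBP control. The split by call is thus not independent of the pathway role. The sterol regulatory element was present in 1 of the 25, Hmgcs1, beside 1.22% of all genes, and in 11 of the 25 (44.0%) with 1 mismatch allowed, beside 23.0% of all genes. The E-box was present in 5 of the 25 (20%), beside 6.86% of all genes. None of the marked motifs overlapped another in the 4 printed stretches. A match of letters is a description of the sequence and no evidence of binding.

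In the mevalonate steps Mvd was the 1 gene of 7 that passed the threshold (14.3%, beside 40.6% of all tested genes). Mvd (chromosome 8, 122433601 to 122443422, minus strand) encodes mevalonate diphosphate decarboxylase, which makes the first isoprenoid unit. It was at 5.67, 4.37 and 4.59 FPKM in the controls and at 8.67, 6.94, 8.85 and 10.1 FPKM in Foxl2-LSL 1 to 4. The groups did not overlap, the mean went from 4.88 ± 0.695 (SD, n = 3) to 8.64 ± 1.30 FPKM (SD, n = 4), and the log2 difference of 0.71 (SE 0.13) had a Benjamini-Hochberg adjusted p of 0.00458 in limma. Its neighbours in the pathway gave no such difference. Hmgcs1, which makes HMG-CoA, ranged from 16.0 to 24.5 FPKM in the controls and from 17.0 to 24.9 FPKM in the other group, with a 95% interval of -0.35 to 0.43 for the log2 difference. Fdps, which makes farnesyl diphosphate, was at 15.8 to 24.5 and at 11.3 to 18.1 FPKM (log2 difference -0.39; limma, adjusted p 0.124). Pmvk, the kinase just before Mvd, was at 12.4 to 20.05 and at 10.8 to 13.8 FPKM (-0.32; limma, adjusted p 0.138). Without control 4 the log2 difference of Pmvk was -0.46 and passed (limma, adjusted p 0.0440), and without control 1 it was -0.14 (0.382). Both Pmvk and Fdps passed with the epithelial score as a covariate (limma, adjusted p 0.0414 and 0.00309). Acat2, Mvk and Idi1 had adjusted p of 0.280, 0.278 and 0.910 (limma).

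The genes between squalene and cholesterol are counted here with Fdft1, which makes squalene. Of these 11 genes 6 rose and 0 fell past the threshold, with a median log2 difference of 0.28. These shares, 54.5% and 0%, stand beside 16.7% and 23.9% of all tested genes. At an unadjusted p under 0.05, or with limma-voom on the recovered fragments, 0 fell as well. Msmo1 (chromosome 8, 64718139 to 64733792, minus strand), which oxidises the methyl groups of lanosterol products, rose most. It was at 8.82, 9.42 and 6.78 FPKM in the controls and at 14.6, 9.62, 12.6 and 17.3 FPKM in Foxl2-LSL 1 to 4. Foxl2-LSL 2 lay just above control 2, and the log2 difference of 0.62 (SE 0.19) had a Benjamini-Hochberg adjusted p of 0.0334 in limma. Fdft1, the squalene synthase that commits farnesyl diphosphate to sterols, was at 7.85, 6.83 and 5.24 FPKM and at 9.63, 7.79, 9.82 and 11.5 FPKM. Its groups overlapped, since Foxl2-LSL 2 lay below control 1, while the test passed (log2 difference 0.49, SE 0.15; limma, adjusted p 0.0364). Tm7sf2, a sterol reductase, was at 9.02, 9.72 and 7.64 FPKM and at 12.8, 11.8, 12.7 and 11.1 FPKM, with no overlap (0.43, SE 0.09; limma, adjusted p 0.0100). Ebp, the sterol isomerase, was at 20.6, 18 and 17.5 FPKM and at 26.0, 21.0, 25.0 and 24.0 FPKM, with Foxl2-LSL 2 close to control 1 (0.34; limma, adjusted p 0.0225). Lss, which closes the sterol rings, was at 2.11, 2.31 and 2.46 FPKM and at 2.73, 3.23, 3.22 and 3.31 FPKM (0.32; limma, adjusted p 0.0244). Dhcr7, the reductase of the last ring double bond, was at 11.4, 9.13 and 10.6 FPKM and at 12.8, 11.7, 13.6 and 13.2 FPKM (0.28; limma, adjusted p 0.0409). For Ebp, Lss and Dhcr7 every library labelled Foxl2-LSL lay above every control, by a small margin.

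The other 5 genes of these steps did not pass. Sqle, the oxygenase whose product Lss uses, was at 6.79 to 9.79 FPKM in the controls and at 7.53 to 10.8 FPKM in the other group, with a 95% interval of -0.29 to 0.40 for the log2 difference. For Cyp51, Nsdhl, Hsd17b7 and Sc5d the intervals also included 0, and their adjusted p were 0.859, 0.930, 0.717 and 0.543 (limma). A p that misses the threshold does not show that a gene was unaltered.

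Control 4 had the lowest level of the 3 controls in 20 of the 32 members (62.5%) and in 8 of the 11 genes between squalene and cholesterol, beside 45.8% of all tested genes. It was also the control with the lowest epithelial marker sum. With the mean of the epithelial markers as a covariate, a setting chosen after seeing the data, 4 members were higher (Insig1, Insig2, Lss and Mvd) and 4 were lower (Scap, Elovl6, Pmvk and Fdps). The calls of Fdft1, Tm7sf2, Msmo1, Ebp, Dhcr7 and Fasn were lost there, with adjusted p of 0.229, 0.0594, 0.224, 0.136, 0.196 and 0.196 (limma). Their log2 differences went from 0.49 to 0.19 for Fdft1, from 0.62 to 0.31 for Msmo1, from 0.34 to 0.19 for Ebp and from -0.37 to -0.17 for Fasn. Tm7sf2 went from 0.43 to 0.33 and Dhcr7 from 0.28 to 0.21. Of the 10 epithelial markers 3 were themselves higher past the threshold, so the covariate and the genotype are not independent, and the part of epithelial content in these calls was not tested further.

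**Figure D3:**
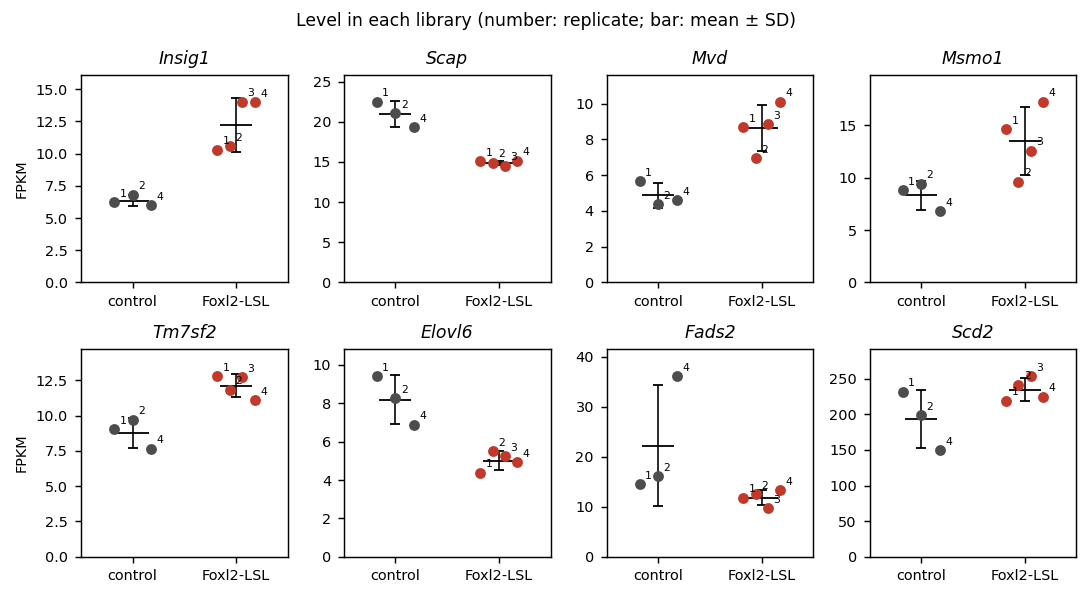
FPKM in each library for 8 genes (points, numbered by replicate; controls grey, libraries labelled Foxl2-LSL red) with mean ± SD (black). The groups are apart for Insig1, Scap, Mvd, Msmo1, Tm7sf2, Elovl6 and Fads2. Control 4, at 36.2 FPKM, sets the control mean of Fads2, and Scd2 overlaps between the groups.

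Among the fatty acid genes 0 of 8 rose and 2 fell past the threshold, with a median log2 difference of -0.31. The share that fell, 25%, lies near the 23.9% of all tested genes, and 16.7% of all tested genes rose. At an unadjusted p under 0.05 still 0 rose, as with limma-voom on the recovered fragments. Elovl6 (chromosome 3, 129532355 to 129638495, plus strand), which lengthens palmitate to stearate, was at 9.43, 8.26 and 6.88 FPKM in the controls and at 4.38, 5.50, 5.24 and 4.93 FPKM in Foxl2-LSL 1 to 4. The groups did not overlap, the mean went from 8.19 ± 1.27 (SD, n = 3) to 5.01 ± 0.482 FPKM (SD, n = 4), and the log2 difference of -0.61 (SE 0.11) had a Benjamini-Hochberg adjusted p of 0.00517 in limma. Fasn (chromosome 11, 120805846 to 120824547, minus strand), the fatty acid synthase, was at 29.7, 31.5 and 36.4 FPKM and at 21.5, 28.3, 25.8 and 24.6 FPKM. Foxl2-LSL 2 lay just below control 1, and the log2 difference was -0.37 (SE 0.11; limma, adjusted p 0.0309). With quantile normalization it was -0.30 and with median centring -0.31, and neither passed (limma, adjusted p 0.0808 and 0.0562).

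The desaturases Fads1 and Fads2, which make polyunsaturated fatty acids and lie side by side on chromosome 19, had groups that did not overlap but did not pass the threshold. Fads2 was at 14.5, 16.1 and 36.2 FPKM in the controls and at 11.8, 12.5, 9.68 and 13.3 FPKM in Foxl2-LSL 1 to 4. Control 4 was above all 6 other libraries, and the log2 difference was -0.75 (SE 0.29; limma, adjusted p 0.0724). Fads1 was at 15.7, 15.7 and 23.9 FPKM and at 13.8, 15.6, 12.4 and 15.4 FPKM, again with control 4 highest (-0.33; limma, adjusted p 0.132). The size of the difference in Fads2 rests largely on control 4. Without that library it was -0.35 (limma, adjusted p 0.0627), and controls 1 and 2 still lay above all libraries labelled Foxl2-LSL. Without control 1 the difference was -0.98 and passed (limma, adjusted p 0.0369). The ratio of Fads1 to Fads2 was 1.09, 0.976 and 0.662 in the controls and 1.16, 1.25, 1.28 and 1.16 in Foxl2-LSL 1 to 4 (two-sided exact permutation p 0.0571, the smallest possible, and 0.114 after adjustment over the 4 ratios).

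Scd2 was the most abundant member per length. It encodes a stearoyl-CoA desaturase, which makes monounsaturated fatty acids, and was at 232, 199 and 150 FPKM in the controls and at 219, 242, 254 and 225 FPKM in Foxl2-LSL 1 to 4 (log2 difference 0.30; limma, adjusted p 0.135). Control 4 was the lowest library and control 1 lay inside the other group. Without control 1 the difference was 0.44 and passed (limma, adjusted p 0.0397), and without control 4 it was 0.13 (0.371). Its paralog Scd1, the desaturase typical of liver and fat, was at 17.5, 17.6 and 16.4 FPKM in the controls and at 8.82, 25.1, 23.7 and 11.1 FPKM in Foxl2-LSL 1 to 4. The controls were tight (17.1 ± 0.622 FPKM, SD, n = 3) and the other group split around them (17.2 ± 8.4 FPKM, SD, n = 4). The ratio of Scd1 to Scd2 was 0.0754 to 0.110 in the controls and 0.0403 to 0.104 in the other group (two-sided exact permutation p 0.40, also after adjustment over the 4 ratios). How the counting divided reads between such near copies cannot be judged from the table. Acaca, the carboxylase that makes malonyl-CoA, was at 4.6, 4.31 and 7.64 FPKM and at 3.61, 4.57, 4.58 and 3.97 FPKM (limma, adjusted p 0.205). Acly, which supplies cytosolic acetyl-CoA, was at 35.9 to 39.8 and at 36.8 to 42.1 FPKM, with an interval of -0.10 to 0.24 for the log2 difference.

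Fat in the sample varied by library, and an association of fat with the level of single genes was not tested. Of the 12 adipose markers 8 were tested and 0 passed the threshold, 0 had an unadjusted p under 0.05, and their log2 differences ran from 0.69 to 1.60. The most abundant markers were Cfd (0.120 to 53.1 FPKM in the controls, 1.37 to 139 FPKM in the other group), Fabp4 (0.324 to 32.9 and 0.784 to 78.4 FPKM) and Car3 (1.67 to 37.6 and 2.16 to 98.9 FPKM). The brown fat marker Ucp1 was at most 0.013 FPKM, and Adipoq and Cidec were listed at 0 in control 1. Within the libraries labelled Foxl2-LSL, Scd1 was high in numbers 2 and 3, which had the high adipose sums, and low in numbers 1 and 4. Control 4, also rich in adipose markers, had no more Scd1 than the other controls. A setting chosen after seeing the data left out control 4, Foxl2-LSL 2 and Foxl2-LSL 3. It kept only controls 1 and 2 and Foxl2-LSL 1 and 4. There Scd1 was lower past the threshold (log2 difference -0.76, limma adjusted p 0.0102). The libraries with the most Scd1 were among those removed, so this call follows from the choice and is no separate support. Of the 22 alternatives Scd1 passed in this 1 only, and not with the adipose covariate. In this setting 5 members were higher (Ebp, Fdft1, Insig1, Msmo1 and Mvd) and 4 were lower (Elovl6, Fasn, Scap and Scd1). With the mean of the adipose markers as a covariate 8 were higher and 4 lower, Dhcr7 lost its call (limma, adjusted p 0.0599) and Acaca gained one (log2 difference -0.44; limma, adjusted p 0.0353). Insig1, Mvd, Scap, Elovl6, Msmo1, Fdft1, Ebp and Fasn kept their calls in both of these settings.

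**Figure D4:**
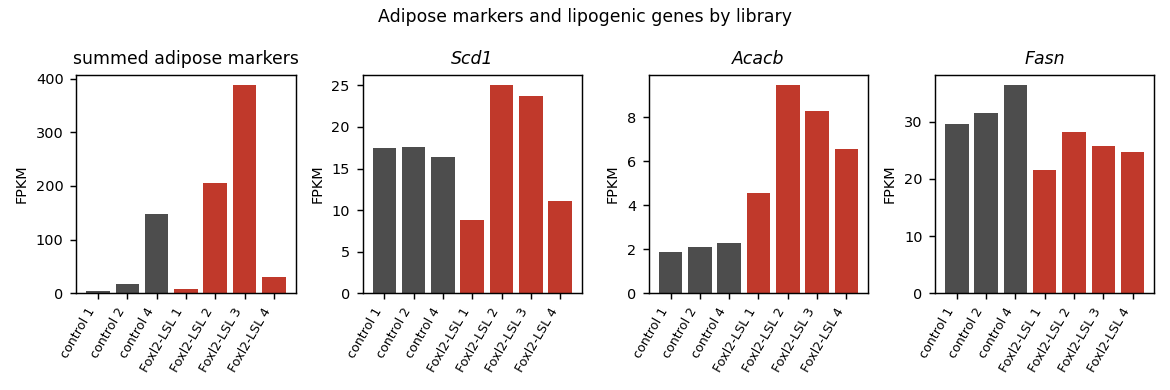
Summed FPKM of 12 adipose markers and FPKM of Scd1, Acacb and Fasn in each library (bars; controls grey, libraries labelled Foxl2-LSL red). The adipose sum is highest in Foxl2-LSL 3, Foxl2-LSL 2 and control 4; Scd1 is high in the first 2 of these and not in control 4, Acacb is higher in all 4 libraries labelled Foxl2-LSL, and Fasn is lower in all 4.

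Other genes of the same pathways were read from 5 further lists. Among 10 other sterol genes 2 were higher and 3 were lower past the threshold, with a median log2 difference of 0.0065. Por, which passes electrons to Cyp51 and Sqle, rose from 43.0 ± 7.55 (SD, n = 3) to 68.0 ± 4.10 FPKM (SD, n = 4) (0.66; limma, adjusted p 0.00381). Cyb5r3, the reductase of cytochrome b5, which the sterol and fatty acid desaturases use, rose from 170 ± 22.4 to 256 ± 45.4 FPKM (0.58; limma, adjusted p 0.0235). Dhdds, Mbtps1 and Erlin1 fell. Of these Mbtps1 encodes the first protease that cleaves the SREBP precursors and was at 50.7 to 55.0 FPKM in the controls and at 34.3 to 41.2 FPKM in the other group (-0.44; limma, adjusted p 0.00468).

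Among 22 tested of 28 other fatty acid genes 2 were higher and 6 were lower. Acacb, the second acetyl-CoA carboxylase, whose malonyl-CoA restrains fatty acid oxidation, rose from 2.08 ± 0.198 (SD, n = 3) to 7.23 ± 2.14 FPKM (SD, n = 4) (log2 difference 1.38, SE 0.20; limma, Benjamini-Hochberg adjusted p 0.00202). It was at 1.88, 2.09 and 2.27 FPKM in the controls and at 4.57, 9.48, 8.29 and 6.58 FPKM in Foxl2-LSL 1 to 4. The groups did not overlap, and within the Foxl2-LSL group Acacb was highest in numbers 2 and 3, the libraries with the high adipose sums. Thrsp, a regulator of lipid synthesis, fell from 58.3 ± 14.5 to 28.0 ± 2.14 FPKM (-1.0; limma, adjusted p 0.00318), and Hacd3, a dehydratase of the elongation cycle, from 42.7 ± 4.77 to 29.7 ± 1.51 FPKM (-0.51; limma, adjusted p 0.00396).

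Genes that move, store and burn lipids also went both ways. Of 20 genes of sterol traffic 2 were higher and 6 were lower. Mylip, which marks lipoprotein receptors for breakdown, rose from 10.9 ± 2.30 (SD, n = 3) to 20.2 ± 1.41 FPKM (SD, n = 4) (log2 difference 0.85; limma, adjusted p 0.00269), and Vldlr, a lipoprotein receptor, from 9.80 ± 4.23 to 17.7 ± 1.14 FPKM (0.85; limma, adjusted p 0.0172). The cholesterol exporter Abcg1 fell from 2.81 ± 1.01 to 1.06 ± 0.258 FPKM (-0.86; limma, adjusted p 0.0125). Of 18 triglyceride and droplet genes 5 were higher and 6 were lower. The lipases Lipe (5.45 ± 1.01 to 14.4 ± 2.01 FPKM) and Pnpla2 (14.9 ± 1.68 to 24.7 ± 3.35 FPKM) rose, as did the acyltransferase Gpat3 (2.74 ± 0.872 to 5.94 ± 0.813 FPKM), with adjusted p of 0.000711, 0.00363 and 0.00448 (limma). Of 12 tested of 14 genes of fatty acid oxidation 1 was higher and 1 was lower. The dehydrogenase Acadm for medium chains rose from 24.1 ± 2.17 to 42.1 ± 1.38 FPKM (0.78; limma, adjusted p 0.000489), and Acads, for short chains, fell from 19.9 ± 2.65 to 13.7 ± 0.662 FPKM (-0.50; limma, adjusted p 0.00610). The shares past the threshold in these 5 lists, 50%, 36.4%, 40%, 61.1% and 16.7% in the order given, stand beside 40.6% of all tested genes. With the adipose score as a covariate Acacb and Lipe both kept their calls.

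The members differed in how far their calls depended on single libraries. Insig1, Mvd, Scap and Elovl6 passed in the same direction under all 22 alternatives tried. Tm7sf2 passed in 20 of 22 and lost its call with the epithelial score (limma, adjusted p 0.0594) and without the 3 libraries richest in adipose markers (0.0685). The other 7 called members each lost the call without at least 4 of the 7 libraries in turn. The count of higher members was 3 without control 2, Foxl2-LSL 3 or Foxl2-LSL 4 (Insig1, Mvd and Tm7sf2 each time) 5 without control 4 or Foxl2-LSL 1, 7 without control 1 and 9 without Foxl2-LSL 2, where Lss lost its call (limma, adjusted p 0.0514) and Stard4 gained one (0.0412). The count of lower members was 2 without control 2, Foxl2-LSL 1, Foxl2-LSL 3 or Foxl2-LSL 4, and then Fasn was the member lost. In those fits the adjusted p of Fasn was 0.0576 to 0.0716, and without control 4, where Pmvk passed in its place, it was 0.0779 (limma).

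**Figure D5:**
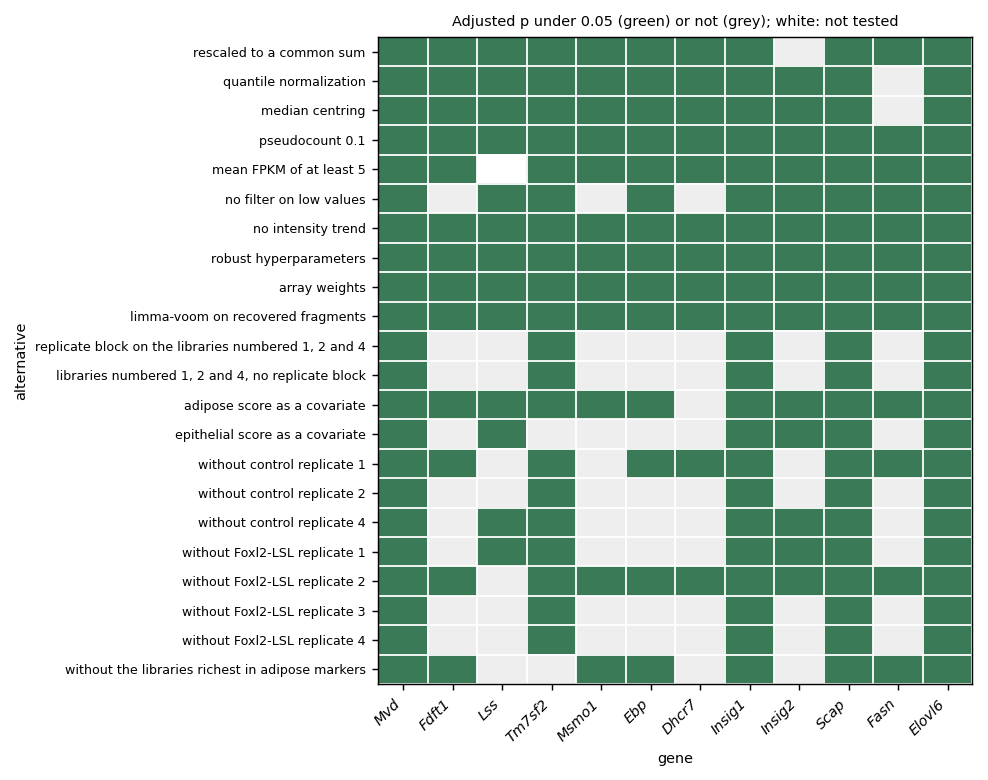
For the 12 members that passed an adjusted p of 0.05 (columns), whether they also passed under each of 22 alternatives (rows; green passed, grey did not, white not tested). The columns of Mvd, Insig1, Scap and Elovl6 are green throughout, and most grey cells lie in fits that leave out libraries or add the epithelial score.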

How the data were processed

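The authors deposited 1 table of FPKM values, with a column per library and, per the file headers, the length of each gene in bases, which is listed as another value. Per the submitters' processing notes the tools were STAR 2.5.2b, featureCounts 1.5.0-p1 (Subread) and DESeq2 1.12.4 with build mm10, with no role given. RNA was extracted with TRIzol, per the labels' protocols. Annotation, strandedness of the counting and filters are not given in the sources used here. FPKM is relative to the whole library, so a strong rise of some genes lowers the others.

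Groups and replicate numbers came from the sample titles, and columns were matched to samples by their descriptions. FPKM times length fell on whole multiples of a step in every library: of the low values used (genes up to 1500 bases, up to 20 multiples), 100% were whole to within 0.1, a tolerance that 20% of random values would meet. The groups were compared on log2(FPKM + 1) for 13334 genes with a mean of at least 1 FPKM by moderated linear models (limma 3.58.1 under R 4.3.3, eBayes with trend, Benjamini-Hochberg adjusted p of 0.05). That scale understates the change of low genes. Ratios of 2 genes got a two-sided exact permutation test over 35 splits, which cannot go below 0.0571. Tables used Python 3.11.15 and pandas 2.3.3. The fit was tested on simulated data for 13334 genes: of 200 given a log2 change of 1, it called 172 with the correct sign, and it called 8 without a change. The 200 had a mean of at least 5 FPKM, and the noise was drawn independently for each gene. No called member differed by as much as 1, and 40.6% of all tested genes were called in the data. The simulated counts therefore do not describe the calls of the members.

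The members and the lists were chosen with earlier results of these data known. Named genes are the control genes, every member past the threshold whose groups do not overlap, the members of the 4 ratios, and in each related list up to 3 called genes with the largest difference and no overlap. Other members are given by range or adjusted p, and Fdft1 is named in full although its groups overlap. Some genes of these pathways are not reported here and were left out of the lists. Replicate numbers 1, 2 and 4 occur in both groups, and no label says that they pair animals, so no block was used. The alternatives were other scalings, pseudocount, filters, variance models, limma-voom on the recovered fragments, the block, marker scores as covariates and leaving out libraries. Promoter sequences are from RefSeq and coordinates from GENCODE M21, both on GRCm38, which is the mm10 assembly.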

Additional observations from a re-analysis of the deposited data

Results flagged for a closer look

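In the group of 4 libraries labelled Foxl2-LSL, 3 of 50 values checked had 1 library far from the other 3 (by Dixon's ratio of gap to range), where chance flags about 1 in 20. Lss was at 2.73 FPKM in Foxl2-LSL 1, below 3.22 to 3.31 FPKM in the others. The ratio of Srebf1 to Srebf2 was 0.726 in Foxl2-LSL 1, below 0.841 to 0.862 in the others. Abcg1 was at 1.44 FPKM in Foxl2-LSL 2, above 0.894 to 0.958 FPKM in the others.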

How the results depend on the processing

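The comparison was repeated under 22 alternatives, 20 planned and 2 chosen after seeing the data (the epithelial score, and leaving out the 3 libraries richest in adipose markers). No called member changed direction under any of them. The number of higher members, 9 as reported, was 3 with the replicate block on the libraries numbered 1, 2 and 4, 3 on the same libraries without the block, 4 with the epithelial score and 5 without the 3 libraries richest in adipose markers. With no filter on low values and all 7 libraries kept it was 6. Fdft1, Msmo1 and Dhcr7 lost their calls there, with adjusted p of 0.0603, 0.0565 and 0.0531 (limma). Leaving out each of the 7 libraries in turn gave 3 to 9 higher and 2 to 4 lower members. The number of genes past the threshold over all tested genes, 5409 as reported, was 3243 with the replicate block and 3975 on the same 6 libraries without it, which is also the fit without Foxl2-LSL 3. Deviations of same-numbered libraries correlated at 0.228, -0.0306 and -0.112 for numbers 1, 2 and 4. With so few libraries these correlations cannot decide whether the numbers mark pairs. The numbers were not taken as pairs because no label says so. Fits with 6 libraries have less power by their construction. Among called genes 41.1% were higher as reported, and 49.2% with quantile normalization and 50.4% with median centring, which align the libraries by construction. The called genes of sterol traffic fell from 8 to 5 when a mean of at least 5 FPKM was required. Members with the sterol regulatory element went from 1 to 11 with 1 mismatch allowed. Of the members that did not pass, 13 changed the sign of their log2 difference in some setting, and the cause was not tested. With the epithelial score Hmgcs1 was at -0.27, Idi1 at -0.13, Sqle at -0.20, Cyp51 at -0.28, Nsdhl at 0.052, Sc5d at -0.14, Srebf1 at -0.016, Srebf2 at -0.090, Stard4 at -0.022, Scd1 at 0.16 and Acaca at 0.0069. Without the 3 libraries richest in adipose markers Hmgcs1 was at -0.0037, Sqle at -0.00026 and Mvk at 0.077. Nsdhl was at 0.044 with quantile normalization, 0.039 with median centring and 0.046 with array weights, and Srebf1 was at -0.012 on the libraries numbered 1, 2 and 4 with and without the replicate block. Leaving out each library in turn gave -0.092 to 0.20 for Hmgcs1, -0.081 to 0.10 for Idi1, -0.087 to 0.15 for Sqle, -0.10 to 0.15 for Cyp51, -0.054 to 0.057 for Nsdhl, -0.21 to 0.0062 for Hsd17b7, -0.021 to 0.18 for Sc5d, -0.043 to 0.082 for Srebf1 and -0.34 to 0.13 for Scd1.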
